A study of Homo sapiens with 8 samples.

Results

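Transcript levels of 10 genes of the S100 family of calcium-binding proteins were examined in SW1990 cells, an established human pancreatic adenocarcinoma line. The 10 genes are S100A4, S100A6, S100A8, S100A9, S100A10, S100A11, S100A13, S100A14, S100A16 and S100P. They were chosen by name, as family members known from pancreatic cancer and other members, from the 38637 genes of the deposited table. A further 10 S100 genes of the table served for comparison.

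Poly(A)-selected RNA was sequenced from 4 groups of SW1990 cells with 2 libraries each. In the first experiment, EBF2-OE cells, which overexpress the transcription factor EBF2, were set against cells carrying the empty vector (Vector, libraries 2 and 3 of each group). In the second, treatment with the small molecule GSK-LSD1, which inhibits the histone demethylase KDM1A, was set against vehicle-treated cells (Vehicle, libraries 1 and 2 of each group). The study used both treatments as ways of raising the monomethylation of histone H3 at lysine 4 or its reader, and asked which transcripts changed. A legend in the paper names SW1990-luc, a luciferase-carrying derivative, while its text and the sample labels name SW1990. For GSK-LSD1 the labels name 2000 µM and no treatment time. The paper names no dose for RNA-seq, and its dose series in SW1990 cells ended below the labelled dose. The labels do not say whether the libraries of a group came from separate cultures, so that a p-value measures the spread between these libraries only. EBF2 was overexpressed in both EBF2-OE libraries, at a level that differs between them. In Vector 2 and in Vector 3, 28 counts of EBF2 were found, compared with 5818 in EBF2-OE 2 and 90100 in EBF2-OE 3. Whether all cells of these libraries expressed it was not tested.

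The libraries held between 20453362 and 27054876 counts on genes. Within a group, the counts of the 2 libraries differed by more than counting error (chi-square per degree of freedom from 5.34 to 32.9), and all 8 were used as separate samples. Of 7 markers of pancreatic ductal carcinoma epithelium, KRT8, KRT18, KRT7 and MUC1 had mean levels of 2645, 2281, 715 and 147 TPM (the count per gene length, rescaled to the same total in each library), whereas EPCAM, KRT19 and CDH1, which define this cell type, lay at 0.482, 0.319 and 0.711 TPM. These 3 defining markers were thus near 0 in cells labelled as a pancreatic carcinoma line. Of 6 fibroblast markers, COL1A1, PDGFRB, COL1A2 and COL3A1 had mean levels of 35.8, 10.8, 8.70 and 2.31 TPM. DCN and LUM lay at 0.722 and 0.322 TPM. The identity of the line was not tested. The summed level of the 7 epithelial markers ran from 4622 to 4952 TPM in Vector, from 5472 to 6247 TPM in EBF2-OE, from 7119 to 7231 TPM in Vehicle and from 5317 to 5360 TPM in GSK-LSD1. Most of this sum came from KRT8 and KRT18. In bulk samples of this kind, fewer cells of a type and less RNA per cell cannot be told apart.

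S100 proteins are small, mostly dimeric proteins with a pair of EF-hand calcium-binding loops. On binding calcium, most of them expose a surface that docks to a target such as an annexin, a myosin or an enzyme, and some are released from cells and act on the receptors AGER and TLR4. In pancreatic ductal adenocarcinoma several members, above all S100P and S100A4, are known as markers of the tumour cells, while S100A8 and S100A9 are best known from neutrophils and monocytes.

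In the table, 9 of the 10 genes lie on chromosome 1 of hg38 in the S100A cluster, and S100P lies on chromosome 4. The cluster of 16 S100A genes covers 1.65 Mb, from 151982915 to 153634361. The listed positions are chr1:151982915-151993859 for S100A10, chr1:152032506-152037004 for S100A11, chr1:153534599-153536049 for S100A6, chr1:153543621-153545806 for S100A4, chr1:153606883-153613137 for S100A16, chr1:153614255-153616917 for S100A14 and chr1:153618799-153634361 for S100A13, all on the reverse strand. S100A9 lies at chr1:153357854-153361023 on the forward strand, S100A8 at chr1:153390032-153422583 on the reverse strand, and S100P at chr4:6693878-6697170 on the forward strand. Several of these spans overlap a gene on the other strand: S100A4 overlaps LOC101928034, S100A10 overlaps LOC105371441, S100A13 overlaps CHTOP and S100A1, and the listed span of S100A8 overlaps S100A7A, which had 0 counts. No source names a strand setting for the counting, so reads from such pairs cannot be told apart; the count of CHTOP, 3683 in the mean, was above that of S100A13 in all 8 libraries. RefSeq lists 10 pseudogenes of S100A11 and the deposited table holds 0 of them, so the counts of S100A11 may depend on how reads with several matches were treated.

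The 60 bases before the RefSeq start of transcription are shown for 6 of the genes that span the range of levels below and for S100A3, a neighbour of S100A4 that is described with EBF2-OE. Each is given 5′ to 3′ on the strand of the gene (RefSeq, GRCh38.p14). For S100A6 the RefSeq start lies inside the span listed above, so that most of its printed bases do too. Capitals mark the letters TATAAA in the first 3 sequences, and in S100A3 they mark CCCNNGGG, the palindromic core letters bound by factors of the EBF family, which occurs there in a pair of overlapping copies.
S100A4, chr1:153545807-153545866, reverse strand: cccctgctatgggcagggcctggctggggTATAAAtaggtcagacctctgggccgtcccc
S100P, chr4:6693818-6693877, forward strand: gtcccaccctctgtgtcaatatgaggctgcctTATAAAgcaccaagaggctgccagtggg
S100A9, chr1:153357794-153357853, forward strand: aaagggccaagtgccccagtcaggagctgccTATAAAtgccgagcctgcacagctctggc
S100A6, chr1:153535992-153536051, reverse strand: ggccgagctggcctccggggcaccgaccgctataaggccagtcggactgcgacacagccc
S100A11, chr1:152037005-152037064, reverse strand: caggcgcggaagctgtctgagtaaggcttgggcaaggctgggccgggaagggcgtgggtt
S100A10, chr1:151993860-151993919, reverse strand: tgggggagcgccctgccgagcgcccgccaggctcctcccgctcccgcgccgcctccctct
S100A3, chr1:153549259-153549318, reverse strand: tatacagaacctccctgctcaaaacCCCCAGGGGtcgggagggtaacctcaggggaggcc

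Searched over 250 bases before each start on both strands, TATAAA was present in 10.7% of the 35116 RefSeq promoters and in 6 of the 15 listed starts of the members, which belong to 5 of the 10 genes (S100A4, S100A8, S100A9, S100A13 and S100P). In each of these 5 genes a copy began between 28 and 31 bases before the start. The letters therefore stand before the most abundant member, S100A4, and before the least abundant pair, S100A8 and S100A9. CCCNNGGG was present in 17.1% of all promoters and in 4 of the 15 member starts, which belong to S100A4, S100A13 and S100A16. In S100A3 it began 244, 35 and 34 bases before the start. These are matches of letters and no measure of binding.

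The 10 genes spanned about 4 orders of magnitude in level, and the order was nearly the same in all 4 groups. Mean levels over the 8 libraries were 2738 TPM for S100A4, 2289 for S100A6, 1474 for S100A11, 974 for S100A10, 550 for S100P, 340 for S100A16, 125 for S100A13, 5.61 for S100A14, 2.25 for S100A9 and 0.302 for S100A8. S100A4 stood between rank 32 and rank 46 of all genes by TPM in the single libraries, and S100A6 between rank 43 and rank 63. Together the 10 genes made up 0.802% to 0.904% of all TPM. They were at 8545 and 8352 TPM in Vector, 9038 and 8932 in EBF2-OE, 8163 and 8019 in Vehicle and 8499 and 8439 in GSK-LSD1.

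Neighbours in this order were mostly separate within a group, with 3 exceptions among the abundant and 2 among the scarce genes. S100A4 was above S100A6 and S100A6 above S100A11 in all 8 libraries, although their ranges over the 8 libraries overlap. S100A11 was above S100A10 in 7 of 8 libraries, with overlap in Vehicle. S100P was above S100A16 in 6 of 8 libraries and was separate from it in Vehicle and GSK-LSD1 only, since in Vector and EBF2-OE the libraries of the 2 genes overlapped. S100A14 and S100A9, and likewise S100A9 and S100A8, were separate in EBF2-OE, Vehicle and GSK-LSD1 and overlapped in Vector.

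The annexin partners came first in the description by role. S100A10 (p11), which forms a tetramer with annexin A2 at the plasma membrane and has lost the ability to bind calcium, was at 1043 and 909 TPM in Vector, 1027 and 916 in EBF2-OE, 1098 and 992 in Vehicle and 897 and 912 in GSK-LSD1. Its highest library was 1.22-fold above its lowest, the narrowest range of the 10 genes. S100A11, a partner of annexin A1, was at 1878 and 2005 TPM in Vector, 2060 and 1899 in EBF2-OE, 966 and 993 in Vehicle and 1048 and 944 in GSK-LSD1. All 4 libraries of the EBF2 experiment thus lay above all 4 of the GSK-LSD1 experiment, and the range over the 8 libraries was 2.18-fold.

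Genes tied to cell motility and the cytoskeleton followed. S100A4, which binds the heavy chain of non-muscle myosin IIA (MYH9) and is known for promoting motility and metastasis, was at 2364 and 2443 TPM in Vector, 2643 and 3078 in EBF2-OE, 2811 and 2755 in Vehicle and 2935 and 2872 in GSK-LSD1. The Vector libraries were its lowest pair. S100P, which binds ezrin and IQGAP1 and activates AGER from outside the cell, was at 419 and 496 TPM in Vector, 425 and 469 in EBF2-OE, 628 and 648 in Vehicle and 682 and 635 in GSK-LSD1. Here the order of the experiments was the opposite of that of S100A11, with no overlap between the experiments. S100A6 (calcyclin), a partner of the calcyclin-binding protein CACYBP, was at 2219 and 2036 TPM in Vector, 2273 and 2137 in EBF2-OE, 2268 and 2238 in Vehicle and 2510 and 2634 in GSK-LSD1. Both GSK-LSD1 libraries were above the other 6.

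S100A13, which takes part in the non-classical release of FGF1 and IL1A, was at 133 and 129 TPM in Vector, 127 and 140 in EBF2-OE, 117 and 125 in Vehicle and 113 and 115 in GSK-LSD1. Its libraries of the EBF2 experiment also lay above those of the GSK-LSD1 experiment, by a narrow margin (at least 127 against at most 125 TPM). S100A16, a broadly expressed member, was at 478 and 330 TPM in Vector, 477 and 289 in EBF2-OE, 266 and 260 in Vehicle and 301 and 318 in GSK-LSD1. S100A14, found mainly in epithelia, was at 5.66 and 3.0 TPM in Vector, 5.93 and 3.46 in EBF2-OE, 5.80 and 5.85 in Vehicle and 7.88 and 7.33 in GSK-LSD1. Within the EBF2 experiment, library 2 was above library 3 in both groups for S100A16 and S100A14, and likewise for S100A6 and S100A10. On the scale of CPM (TMM-scaled counts relative to library size, over the 8 libraries), library 2 was 1.38-fold above library 3 in Vector and 1.64-fold in EBF2-OE for S100A16, and 1.79-fold and 1.71-fold for S100A14, compared with at most 1.12-fold for S100A6 and S100A10. S100A2, outside the 10 genes, was 1.23-fold and 1.69-fold apart in the same direction. On this scale S100A4, S100P and S100A13 went the other way in both groups. In Vector and EBF2-OE, library 2 was at 0.921 and 0.857 of library 3 for S100A4. The values were 0.805 and 0.905 for S100P, and 0.975 and 0.906 for S100A13. A gap like that of S100A16 and S100A14 was not seen in the GSK-LSD1 experiment. There the libraries of a group lay within 1.05-fold of each other for S100A16 and within 1.10-fold for S100A14.

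S100A8 and S100A9, which form calprotectin and act on TLR4 and AGER, were barely detected. S100A9 had 21 and 4 counts in Vector, 3 and 3 in EBF2-OE, 12 and 19 in Vehicle and 17 and 13 in GSK-LSD1, which corresponds to 0.611 to 4.72 TPM. S100A8 had 5 and 1 counts in Vector, 1 and 1 in EBF2-OE, 2 and 1 in Vehicle and 2 and 2 in GSK-LSD1, so that a change between groups was not detectable at this depth. Vector 2 held the highest count of both genes. Of 9 myeloid markers, 7 were under 1 TPM in the mean, among them PTPRC at 0.0743 TPM, and FPR1 had 0 counts in all 8 libraries. The summed level of the 9 markers lay between 13.3 and 33.2 TPM over all libraries, most of it from CD68 at 19.8 TPM. In Vector 2 against Vector 3, ITGAM had 15 against 0 counts, LYZ 11 against 1, PTPRC 7 against 3, CD14 15 against 13 and CD68 342 against 338. CSF3R had 2 in both, and FCGR3A and FPR1 had 0 in both. Of the 9 markers only CSF1R had more counts in Vector 3, with 55 against 65. Vector 3 was the deeper library, with 24022927 counts on genes against 20828541 in Vector 2. LYZ was highest in GSK-LSD1 1, with 51 counts, where S100A9 had 17. The part of myeloid cells in the values of S100A8 and S100A9 was not tested.

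Level varied sharply between neighbours along the cluster. S100A6 and S100A4 both exceeded 2000 TPM in every library, while S100A5, which lies between them, had a mean of 3.05 TPM. S100A8 and S100A9 on one side did not reach 5 TPM, and S100A3 and S100A2 on the other had means of 48.2 and 30.6 TPM. S100A16 and S100A14, also adjacent, had means of 340 and 5.61 TPM. Of the 60 genes of other families within the span, 58 had under 10 counts in every library and 45 had 0 counts in all 8. The 2 genes of the span with enough counts for a test were LOC101928034 and LOC105371441, which overlap S100A4 and S100A10. The 7 S100-fused-type genes of the same region (CRNN, FLG, FLG2, HRNR, RPTN, TCHH and TCHHL1), which build the cornified layer of the skin, all had under 10 counts in every library.

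The first comparison asks which genes differ between EBF2-OE and Vector. No S100 gene passed the test. Of the 8 members tested, S100A4 had the largest log2 fold change, with a higher level in EBF2-OE. S100A9, with 3 to 21 counts, was not tested, and both of its EBF2-OE libraries lay below both Vector libraries. Of the 10 genes, 8 had enough counts for edgeR's quasi-likelihood test, S100A8 and S100A9 being removed by the low-count filter. Of these 8, 0 were called, which required more than a 1.5-fold change and an adjusted p-value (Benjamini-Hochberg) below 0.05, against a background of 0% of the 15560 genes tested. With p-values left unadjusted, with or without the fold limit, the count below 0.05 was also 0, and DESeq2 and limma gave 0 members. Over all genes, 114 were higher and 34 lower past the fold limit when p-values were left unadjusted, and DESeq2 called 6 higher and 1 lower. EBF2 itself, with 28 counts in each Vector library and 5818 and 90100 in EBF2-OE, was also not called by edgeR under these limits. A count of 0 called by this test therefore does not show that the members were unchanged.

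S100A4 was at 503 ± 24.1 CPM in Vector and 611 ± 70.8 CPM in EBF2-OE (SD, n = 2 libraries each, TMM over the 4 libraries). Both EBF2-OE libraries were above both Vector libraries. This was a log2 fold change of 0.28 with a standard error of 0.127 and a 95% confidence interval from -0.03 to 0.59, the unadjusted p-value of edgeR was 0.0682 and the Benjamini-Hochberg adjusted p-value was 1.00. S100A6, at 401 ± 14.5 and 424 ± 14.9 CPM, was also above in both libraries on this scale, with a log2 fold change of 0.08, but its libraries overlapped in TPM. The other 6 tested members overlapped between the groups, so that 2 of 8 lay above and 0 below, where 12.1% and 10.8% of all genes tested did.

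For the other tested members the intervals bound the size of any difference. S100P was at 80.3 ± 11.5 CPM in Vector and 79.9 ± 6.22 CPM in EBF2-OE, with a log2 fold change of -0.01 and an interval from -0.37 to 0.35. S100A10, S100A11 and S100A13 had log2 fold changes of 0.02, 0.06 and 0.06, with intervals that reached at most 0.36 in either direction. S100A16 had a log2 fold change of -0.05 with an interval from -0.70 to 0.60, and S100A14 one of 0.15 with an interval from -0.99 to 1.29. A change of 1.5-fold is 0.58 on this scale, so that the intervals of S100A16 and S100A14 reach beyond it in both directions, that of S100A4 slightly beyond it upwards, and those of the other 5 do not reach it.

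Among the S100 genes outside the 10, S100A3 stood apart in this comparison. S100A3, a cysteine-rich member known from the hair cuticle, had 143 and 115 counts in Vector, 410 and 441 in EBF2-OE, 343 and 385 in Vehicle and 361 and 331 in GSK-LSD1. The Vector libraries were the low ones, and EBF2-OE was the highest pair in TPM, at 71.8 and 69.4. The log2 fold change of EBF2-OE against Vector was 1.78 with a standard error of 0.222 and an unadjusted p-value of 0.000182, and the Benjamini-Hochberg adjusted p-value was 1.00 by edgeR, so that it was not called. By DESeq2 the adjusted p-value was 1.88e-06, and in the edgeR fit over all 8 libraries it was 0.0259. LOC101928034, which overlaps S100A3 on the other strand, had 220 and 133 counts in Vector and 255 and 216 in EBF2-OE, with a log2 fold change of 0.48. The part of its reads in the value of S100A3 was not tested. EBF2 had 5818 counts in EBF2-OE 2 and 90100 in EBF2-OE 3, where S100A3 had 410 and 441. A relation of the level of S100A3 to that of EBF2 was not tested. Of the other S100 genes, S100A1, S100A2 and S100A5 were tested and their libraries overlapped between Vector and EBF2-OE, while the remaining 6 in the table had under 10 counts in every library.

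The second comparison asks which genes differ between GSK-LSD1 and Vehicle. Both S100A6 and S100A16 were slightly higher in GSK-LSD1-treated cells, by 16.8% and 20.4%, which is under the fold limit of the call. Of the 9 members with enough counts, 0 were called by edgeR under the same limits, where 4.57% of the 16059 genes tested were. DESeq2 and limma also gave 0 members, as did an unadjusted p-value with the same fold limit. Without a fold limit, 2 members had an adjusted p-value under 0.05 (S100A6 and S100A16). Both were higher, where 9.86% of all genes tested passed that limit and were higher.

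S100A6 was at 440 ± 10.7 CPM in Vehicle and 514 ± 7.98 CPM in GSK-LSD1 (SD, n = 2 libraries each, TMM over the 4 libraries). In log2 terms the change was 0.22, its standard error 0.0451, with an interval from 0.12 to 0.32 and an adjusted p-value of 0.00664 by edgeR with Benjamini-Hochberg adjustment. S100A16 was at 168 ± 5.41 CPM in Vehicle and 202 ± 4.02 CPM in GSK-LSD1. Its log2 fold change was 0.27 (standard error 0.0507), with an interval from 0.16 to 0.38 and an adjusted p-value of 0.00482 by the same test. For both genes the difference was larger than the spread between libraries in this experiment. In 1 edgeR fit over all 8 libraries, in which the spread of the EBF2 experiment counts too, the adjusted p-values were 0.255 for S100A6 and 0.666 for S100A16. The biological coefficient of variation was 5.87% in the libraries of this comparison and 19% in those of EBF2-OE and Vector.

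S100A10 was at 270 ± 23.6 CPM in Vehicle and 239 ± 1.77 CPM in GSK-LSD1, and both GSK-LSD1 libraries were below both Vehicle libraries. Its log2 fold change of -0.18 had a standard error of 0.0611 and an adjusted p-value of 0.0719 by edgeR with Benjamini-Hochberg adjustment, so it did not pass. Vehicle 1 weighed most in this value: without it the log2 fold change was -0.08. S100A14 was at 2.65 ± 0.0248 CPM in Vehicle and 3.55 ± 0.247 CPM in GSK-LSD1, a difference of 0.42 on the log2 scale (standard error 0.181) with an adjusted p-value of 0.137 by the same test. It rests on 66 and 72 counts in the Vehicle libraries and 85 and 76 in those of GSK-LSD1. S100A4, S100P, S100A11, S100A13 and S100A9 had log2 fold changes of 0.10, 0.08, 0.06, -0.05 and 0.15. The intervals of S100A4, S100P, S100A11 and S100A13 did not go beyond 0.21 in size, while that of S100A9, with at most 19 counts per library, ran from -0.77 to 1.07.

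Counted by separation on the CPM scale, 5 of the 9 tested members were above in both GSK-LSD1 libraries (S100A4, S100A6, S100A14, S100A16 and S100P), 2 were below (S100A10 and S100A13) and 2 overlapped. Of all genes tested, 30% were above and 30.2% below in this way. S100P counted among those above overlapped between the groups in TPM.

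No member passed a test of whether its change differed between the 2 treatments. In the fit over all 8 libraries, the contrast of the EBF2-OE change with the GSK-LSD1 change passed an adjusted p-value of 0.05 for 0 of 9 members tested and for 0% of 16558 genes (edgeR, Benjamini-Hochberg), and 0 members had an unadjusted p-value under 0.05. DESeq2 also gave 0 members. For S100A16 the change in EBF2-OE was below that in GSK-LSD1, with a difference of -0.32 on the log2 scale and an interval from -1.03 to 0.39. For S100A6 the value was -0.15, with an interval from -0.40 to 0.09. The largest value was that of S100A9, -2.13, with an interval from -4.63 to 0.37, and it was -0.40 without Vector 2, the library with its highest count. For S100A3, which is no member of the 10, it was 1.65 with a standard error of 0.227 and an adjusted p-value of 0.0948 by edgeR. Its outcome depends on the method. Among DESeq2 and edgeR without the low-count filter, the lowest adjusted p-value was 1.98e-07. The log2 value ran from 1.44 to 1.93 when a library was left out.

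The third comparison sets the controls of the experiments against each other and shows how the members vary outside the treatments. Vector and Vehicle differ in experiment as well as in kind of control, and the 2 cannot be told apart. S100A11 was nearly 2-fold higher in Vector, S100A16 was higher and S100P was lower. Of the 9 members tested, 2 were called by edgeR with Benjamini-Hochberg adjustment at a fold change above 1.5, S100A11 and S100A16, both higher in Vector. Of all 16019 genes tested, 16% were called and 5.79% were called higher in Vector.

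S100A11 was at 211 ± 0.720 CPM in Vehicle and 413 ± 29.9 CPM in Vector (SD, n = 2 libraries each). In log2 terms the difference was 0.97, its standard error 0.0785 and 0.00623 its adjusted p-value (edgeR, Benjamini-Hochberg). Without Vehicle 1 its adjusted p-value was 0.0699 with a log2 fold change of 0.96, where the lone Vehicle library is assumed to vary like the Vector libraries. S100A16 was at 167 ± 5.46 CPM in Vehicle and 252 ± 58.6 CPM in Vector, a difference of 0.60 on the log2 scale (standard error 0.159) with an adjusted p-value of 0.0445 by the same test. Its Vector libraries lay 1.38-fold apart, and the log2 fold change was 0.34 without Vector 2 and 0.82 without Vector 3. In the fit over all 8 libraries its adjusted p-value was 0.0725, and it was 0.195 without Vehicle 1 and 0.208 without Vehicle 2. S100P was at 115 ± 0.748 CPM in Vehicle and 81.5 ± 11.8 CPM in Vector, with a log2 fold change of -0.50 and an adjusted p-value of 0.0313, under the fold limit, which became 0.197 without Vehicle 1 and 0.184 without Vehicle 2. The summed level of the epithelial markers, most of it from KRT8 and KRT18, was lower in Vector than in Vehicle, by the values given above. Its part in these differences was not tested.

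**Figure D1:**
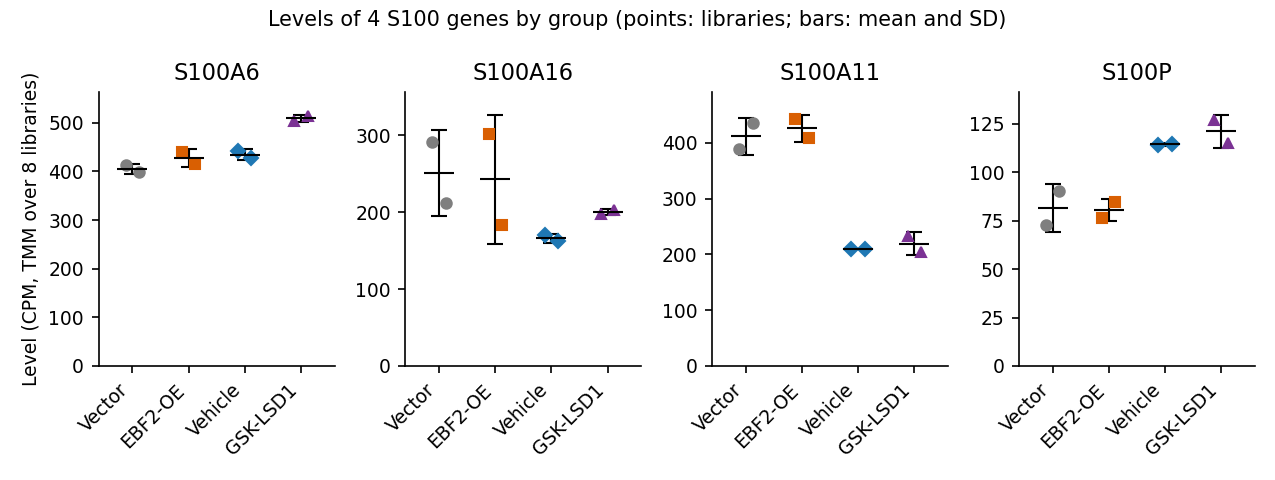
CPM (TMM over 8 libraries, axes from 0) of S100A6, S100A16, S100A11 and S100P in each group; points are libraries, and bars give the mean and SD of 2 libraries. S100A6 is highest in GSK-LSD1, S100A16 shows a wide gap between the libraries of Vector and of EBF2-OE, and S100A11 and S100P differ between the experiments in opposite directions.

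The rest of the family also differed between the controls. S100A2, a member lost or raised in different carcinomas, was higher in Vector with a log2 fold change of 0.70, while S100A3 and S100A5 were lower with log2 fold changes of -1.25 and -1.76. These 3 of the 4 tested were called, where 16% of all genes tested were, with adjusted p-values of 0.0299, 0.0139 and 0.0167 by edgeR with Benjamini-Hochberg adjustment. None of the 3 passed without Vehicle 1 (0.206, 0.115 and 0.156) or without Vehicle 2 (0.203, 0.0976 and 0.0765). S100A2 also missed the threshold in the fit over all 8 libraries, at 0.0507, and the fold limit without Vector 2, at 0.54 on the log2 scale. S100A5 rests on 22 and 33 counts in Vector against 123 and 95 in Vehicle. S100A1, the fourth gene tested of that list, was not called.

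A list of 19 known binding partners and receptors of S100 proteins was examined beside the genes, and 15 of them were tested. In EBF2-OE against Vector 0 of 15 were called, with a median log2 fold change of 0.06 beside 0.00 over all genes tested. In GSK-LSD1 against Vehicle 2 of 15 were called higher and 0 lower, where 4.57% of all genes tested were called, with a median of 0.00 beside -0.01 over all genes. The 2 were PLAT, the tissue plasminogen activator that S100A10 binds, and ALCAM, a cell adhesion molecule reported as a receptor for S100 proteins. PLAT rose from 496 and 512 counts in the Vehicle libraries to 826 and 806 under GSK-LSD1, a change of 0.89 on the log2 scale (standard error 0.0798) with an adjusted p-value of 5.58e-05 by edgeR with Benjamini-Hochberg adjustment. ALCAM rose from 1579 and 1633 counts to 2334 and 2355, a change of 0.74 on the log2 scale (standard error 0.0587) with an adjusted p-value of 2.68e-05. In the fit over all 8 libraries the adjusted p-values were 0.0717 for PLAT and 0.150 for ALCAM.

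Among partners at the membrane and the cytoskeleton, 2 were lower in GSK-LSD1 by less than the fold limit. AHNAK, a large scaffold bound by S100A10 with annexin A2, had a log2 fold change of -0.40 with an adjusted p-value of 0.00025, and MYH9, the myosin bound by S100A4, one of -0.17 with an adjusted p-value of 0.0235 (edgeR, Benjamini-Hochberg). In the fit over all 8 libraries these adjusted p-values were 0.184 for AHNAK and 0.477 for MYH9. MYH9 also missed the threshold with the replicate number as a block (0.0542), without Vehicle 1 (0.0902) and without GSK-LSD1 1 (0.120). The annexins ANXA2 and ANXA1, with mean levels of 370 and 353 TPM, had log2 fold changes of 0.02 and -0.04 in GSK-LSD1 against Vehicle and of 0.03 and -0.01 in EBF2-OE against Vector. In Vector against Vehicle they were higher by 0.34 and 0.42, with adjusted p-values of 0.0213 and 0.0394 by edgeR with Benjamini-Hochberg adjustment and folds under 1.5. Neither passed without Vehicle 1 (0.249 and 0.242) or without Vehicle 2 (0.180 and 0.225). BSG, a receptor for S100A9 and the most abundant gene of the list at 1513 TPM, had log2 fold changes of 0.15, 0.00 and 0.01 in the 3 comparisons, none of which passed the test. CACYBP, the partner of S100A6, had a mean level of 97.3 TPM and log2 fold changes of -0.02, 0.08 and 0.28 in the 3 comparisons, the last of them with an adjusted p-value of 0.0424 (edgeR, Benjamini-Hochberg; up to 0.363 when a library was left out) and a fold under 1.5. EZR and IQGAP1, the cytoskeletal partners of S100P, had mean levels of 304 and 242 TPM and log2 fold changes of -0.05 and 0.08 in GSK-LSD1 against Vehicle, neither of which passed the test. The receptors AGER and TLR4 were at 4.79 and 0.912 TPM. In Vector against Vehicle, 5 of the 15 tested partners passed the adjusted p-value with no fold limit (edgeR, Benjamini-Hochberg). Over all 16019 genes tested, 2172 were higher and 2122 lower at that limit. Besides ANXA2, ANXA1 and CACYBP, which were higher, AHNAK and PLAT were lower, with log2 fold changes of -0.51 and -0.48. Their adjusted p-values were 0.0136 and 0.0418 by edgeR, and 0.0130 and 0.0816 in the fit over all 8 libraries. Neither AHNAK nor PLAT passed without Vehicle 1 or without Vehicle 2. The log2 fold changes were then -0.55 and -0.48 for AHNAK and -0.43 and -0.53 for PLAT.

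The genes most like S100P, S100A6 and S100A4 in pattern were sought by the Pearson correlation of log2(CPM + 1) over the 8 libraries, among 10125 genes with a mean of at least 10 CPM. The 8 points share their groups and are given as a description only. For S100P they were MATN2 (r = 0.987), C1R (0.987) and FRMD7 (0.984). For S100A6 they were PLAT (0.987), CFB (0.977) and FITM2 (0.973). For S100A4 they were HES2 (0.977), LOC105376294 (0.946) and MYL9 (0.937). Among the members, the closest to S100P was S100A6 (0.663), and the closest to S100A4 was S100P (0.610). The highest value among a few members cannot be compared with the highest among 10125 genes.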

How the data were processed

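RNA-seq of 8 SW1990 libraries was analysed from the deposited gene table. Per the labels and the paper's methods, the authors mapped paired-end reads with HISAT2 (default parameters, hg38) and obtained gene counts with HTSeq. The deposited raw counts served for all tests. The TPM deposited by the authors was checked to be the count per listed length rescaled to the library (largest relative difference 3.27e-14) and served for levels. The numbers of counts per library limit the precision of scarce genes.

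The main test was that of edgeR 4.0.16 under R 4.3.3 (quasi-likelihood, TMM, filterByExpr with a minimum count of 10), each comparison on its own 4 libraries and the difference of the changes on all 8. P-values are two-sided and adjusted over all genes tested. Calls needed a fold above 1.5 and an adjusted p-value under 0.05. Standard errors and 95% intervals come from the test statistic. CPM in tests uses the TMM factors of the 4 libraries. The alternatives were DESeq2 1.42.0, its size factors in edgeR, other low-count filters, 1 fit over 8 libraries, limma 3.58.1 on log2(CPM + 1), unadjusted p-values, no fold limit, blocking on the replicate number and leaving out each library. The scripts were tested on simulated data. Python 3.11.15 with numpy 2.4.6, pandas 2.3.3 and matplotlib 3.10.9 was used.

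The members and gene lists were chosen with earlier results of these data known. All 10 members are named, of each list the genes called in a treatment comparison and otherwise up to 8 genes with a mean of at least 10 TPM, and the 3 genes most like S100P, S100A6 and S100A4. S100A1, S100A5, AGER, TLR4 and the single myeloid and fibroblast markers were named after their values were seen. Promoters are those of RefSeq (GRCh38.p14), and all 10 members matched. A further partner gene was left out of the list and its counts, and is not reported here. Protein sequences were not used here.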

Additional observations from a re-analysis of the deposited data

Results flagged for a closer look

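The libraries of AHNAK, a scaffold bound by S100A10 with annexin A2, lay on opposite sides of their controls under the treatments: both EBF2-OE libraries were above both Vector libraries, with a log2 fold change of 0.26 that did not pass the test (adjusted p-value 1.00 by edgeR), and both GSK-LSD1 libraries were below both Vehicle libraries, with one of -0.40. The separation from Vector holds on the CPM scale, while in TPM EBF2-OE (166 and 133) overlapped with Vector (137 and 118). The controls also differed from each other, with Vehicle at 173 and 186 TPM. The log2 fold change of Vector against Vehicle was -0.51, larger in size than either treatment change. GSK-LSD1 was at 126 and 139 TPM, so the treated groups overlapped. The part of the control levels in the opposite signs was not tested. A test of the difference between the 2 treatment changes gave 0.66 on the log2 scale, with a standard error of 0.160. This difference did not pass (adjusted p-value 0.313, edgeR, Benjamini-Hochberg). Over the alternatives run for that difference, the adjusted p-value lay between 0.000196 and 1.00.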

How the results depend on the processing

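The count of 0 members called in EBF2-OE against Vector and in GSK-LSD1 against Vehicle stood under all alternatives run, except that 2 members of the second comparison (S100A6 and S100A16) passed with no fold limit. With the replicate number as a block, 0 members were called in either comparison, and over all genes 4 were called higher and 1 lower in EBF2-OE and 420 higher and 343 lower in GSK-LSD1. The deviations of same-numbered libraries correlated with r = 0.320 between Vector and EBF2-OE and r = -0.121 between Vehicle and GSK-LSD1, and the labels do not say what the numbers mark, so they were not taken as pairs. With the block, the adjusted p-value of S100A3 in EBF2-OE against Vector was 0.0187. The block was not run for Vector against Vehicle, which share only number 2. In Vector against Vehicle, 1 member (S100A11) was called with at least 10 counts in every library, in the fit over all 8 libraries and with limma, and leaving out a library gave 0 members (without Vehicle 1) to 3 members (S100A11, S100A16 and S100P, without Vector 3). Over all genes, EBF2-OE against Vector had 64 higher and 10 lower genes without the low-count filter, and GSK-LSD1 against Vehicle 85 and 15 in the fit over all 8 libraries and 1583 and 1424 with no fold limit. Vector against Vehicle went from 927 higher and 1631 lower genes to 2 and 10 without Vehicle 1 and to 34 and 201 without Vehicle 2. The difference of the changes had 38 higher and 56 lower genes by DESeq2 and 205 and 185 without the filter, with 0 members in both. The summed level of the members in GSK-LSD1 was 8469 TPM as deposited and 8647 on the scale of TMM-normalized CPM per length. The log2 fold change of BSG in Vector against Vehicle was 0.01 and turned to -0.0046 with at least 10 counts in every library.

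Log2 fold changes that turned sign when a library was left out were all ones that had not passed the test. In EBF2-OE against Vector the ranges were -0.057 to 0.11 for S100A10, -0.0078 to 0.13 for S100A11, -0.024 to 0.13 for S100A13, -0.28 to 0.65 for S100A14, -0.44 to 0.26 for S100A16, -0.14 to 0.15 for S100P, -1.64 to 0.52 for S100A1, -0.63 to 0.12 for S100A2, -1.30 to 0.40 for S100A5, -0.14 to 0.14 for ANXA1, -0.038 to 0.081 for ANXA2, -0.15 to 0.042 for EZR, -0.064 to 0.17 for IQGAP1 and -0.076 to 0.020 for CACYBP. In GSK-LSD1 against Vehicle they were -0.035 to 0.15 for S100A11, -0.071 to 0.44 for S100A9, -0.12 to 0.40 for S100A5, -0.027 to 0.077 for ANXA2 and -0.00059 to 0.012 for BSG. In Vector against Vehicle they were -1.76 to 0.76 for S100A9, -0.027 to 0.062 for BSG and -0.16 to 0.044 for EZR. For the difference of the changes they were -0.10 to 0.084 for S100A11, -0.70 to 0.23 for S100A14, -0.72 to 0.00046 for S100A16, -0.22 to 0.065 for S100P, -0.50 to 1.64 for S100A1, -1.42 to 0.26 for S100A5, -0.54 to 0.010 for ALCAM, -0.092 to 0.18 for ANXA1, -0.075 to 0.060 for ANXA2, -0.10 to 0.093 for EZR and -0.16 to 0.083 for IQGAP1. With 2 libraries a group and 3 to 21 counts of S100A9 and 1 to 5 of S100A8, changes of these genes were not detectable at this depth. The cause of these shifts was not tested.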
